A study of Mus musculus with 9 samples.

Results

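Bipolar cell marker genes were followed in libraries of cells sorted from the mouse retina as retinal ganglion cells (RGCs). The 9 genes were taken by name from the deposited table, and all 9 were among its 15228 listed genes. They fall into 6 genes of rod bipolar cells or of the ON pathway (Prkca, Trpm1, Nyx, Pcp2, Gng13 and Bhlhe23) and 3 genes of cone bipolar cells (Vsx1, Scgn and Cabp5), although Cabp5 is also made by rod bipolar cells. The mice were wild-type C57BL/6J animals, 6 to 8 weeks old at surgery. Ctrl libraries came from uninjured retinas. ONC libraries came from retinas dissected 3 d after optic nerve crush, with PBS vehicle injected into the eye. TPEN libraries came from retinas dissected 3 d after the same crush, with the zinc chelator TPEN injected at 100 μM in a volume of 3 μL per eye. Each group had 3 libraries, and the sort kept cells that carried CD90.2 and lacked other surface antigens. Separate mice for the libraries were not stated in the sources used here, so p-values measure only the spread between these libraries, which may be technical.

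Bipolar cells are the interneurons that carry signals from photoreceptors to RGCs and amacrine cells. Rod bipolar cells and ON cone bipolar cells sense glutamate with the receptor mGluR6, which acts through a G protein to close the cation channel TRPM1 in darkness and lets it open when light lowers glutamate release. OFF cone bipolar cells use ionotropic glutamate receptors instead. A sort for RGCs is meant to leave bipolar cells out. In bulk libraries such as these, fewer cells of a type and less RNA per cell cannot be told apart.

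The promoter windows of the 3 members whose ONC libraries all lay below their Ctrl libraries are shown first, a choice made after the values were seen. Each runs from 250 bases before to 50 bases after the annotated start, 5′ to 3′ on the strand of the gene, from RefSeq (GRCm38.p6). Capitals mark TAATCC, the core sequence bound by the homeodomain factors OTX2 and CRX, on either strand.
Trpm1, chr7:64153585-64153884, plus strand: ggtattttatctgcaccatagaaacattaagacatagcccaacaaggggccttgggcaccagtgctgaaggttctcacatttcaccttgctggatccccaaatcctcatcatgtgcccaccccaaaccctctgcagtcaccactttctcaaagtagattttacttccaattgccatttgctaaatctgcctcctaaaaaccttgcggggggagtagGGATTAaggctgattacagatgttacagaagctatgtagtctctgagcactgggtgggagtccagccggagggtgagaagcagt
Cabp5, chr7:13397905-13398204, plus strand: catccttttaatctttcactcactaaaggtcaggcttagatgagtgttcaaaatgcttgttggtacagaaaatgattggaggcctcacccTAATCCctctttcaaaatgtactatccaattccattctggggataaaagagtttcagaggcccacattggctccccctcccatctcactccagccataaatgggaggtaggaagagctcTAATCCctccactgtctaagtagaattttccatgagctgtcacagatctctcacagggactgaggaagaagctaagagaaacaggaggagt
Prkca, chr11:108343839-108344138, minus strand: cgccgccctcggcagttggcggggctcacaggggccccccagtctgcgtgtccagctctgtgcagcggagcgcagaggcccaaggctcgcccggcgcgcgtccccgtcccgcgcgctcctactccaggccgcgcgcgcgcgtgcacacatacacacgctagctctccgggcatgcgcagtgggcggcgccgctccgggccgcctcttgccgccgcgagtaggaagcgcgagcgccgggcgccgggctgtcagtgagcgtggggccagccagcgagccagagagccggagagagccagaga
The Cabp5 window holds TAATCC on the gene's own strand at -160 to -155 and at -41 to -36, counted from the start. The Trpm1 window holds it on the opposite strand at -34 to -29, where it reads as its reverse complement, and the Prkca window does not hold these letters. Over all 32851 promoter windows of this length, 7.06% held TAATCC. All 9 members matched the table of promoters, with 14 windows in all, and 2 of these 14 windows held the motif (1 of Cabp5 and 1 of Trpm1). A second homeodomain core, TAATTN, begins with the same letters as TAATCC but cannot match the same 6 bases on 1 strand. It was found in 5 of the 14 windows, from Gng13, Pcp2 and an alternative start of Trpm1, and in 27.0% of all windows. Not all windows of Gng13 and Pcp2 held it. Windows of Pcp2 overlap and share a match, so the windows are not independent. The window at the alternative start of Trpm1 held no TAATCC. Neither did the windows of Grm6 and Gpr179, which are among the further bipolar genes called lower in ONC/Ctrl below. The windows of Rgs9bp, Otx2 and Igfn1, also called lower there, are not described here. These matches are a description of the letters in the windows, and a link to the levels was not tested.

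The members were present at moderate to very low levels. Over all 9 libraries, Prkca, which encodes protein kinase C alpha and is the usual label of rod bipolar cells, had the highest mean at 15.4 RPKM (reads scaled for the length of the gene and the size of the library) and ranked 2993 of 15228 genes. Cabp5, a calcium-binding protein of bipolar cells, followed at 14.2 RPKM (rank 3218). Pcp2, a modulator of G proteins in rod and ON bipolar cells, and Scgn, the calcium sensor secretagogin of cone bipolar types, had means of 4.50 and 4.49 RPKM. Trpm1 came next at 3.15 RPKM. Gng13, a G protein gamma subunit of ON bipolar cells, had 2.25 RPKM. Bhlhe23, a transcription factor needed for rod bipolar maturation, had 0.588 RPKM. Nyx, which encodes nyctalopin, a dendritic surface protein that holds TRPM1 in place, had 0.573 RPKM. Vsx1, a homeobox gene of cone bipolar cells, was the lowest at 0.373 RPKM and the only member below the filter of a mean of 0.5 RPKM, so that 8 of the 9 members were tested.

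Some neighbours in this order were not separated. Pcp2 was above Scgn in 5 of 9 libraries, and Bhlhe23 was above Nyx in 4 of 9. Prkca was above Cabp5 in 8 of 9 libraries. The other neighbours kept their order in all 9 libraries. The members differ widely in the number of reads behind these levels. Prkca had 2789 to 3244 reads per library, Trpm1 865 to 1115 and Cabp5 708 to 870. Pcp2 had 128 to 216 reads and Scgn 122 to 180. Nyx had 44 to 86 reads, Gng13 26 to 52, Bhlhe23 16 to 53 and Vsx1 15 to 44, so only large differences were detectable for these 4 genes. The positions of the 9 genes (GRCm38) are as follows: Trpm1 (64153835 to 64269775) and Cabp5 (13398132 to 13408887) on chromosome 7, Prkca on chromosome 11 (107933387 to 108343928), Scgn on chromosome 13 (23953456 to 23991214), Pcp2 on chromosome 8 (3623371 to 3625545), Gng13 on chromosome 17 (25717171 to 25719406), Nyx on chromosome X (13466110 to 13489313), and Bhlhe23 (180774381 to 180776900) and Vsx1 (150680702 to 150689360) on chromosome 2. Of the exon length of Gng13, 51.6% is shared with Chtf18 on the opposite strand, and 51.5% of that of Pcp2 with Pet100. The kit was stranded, but whether strand was used in counting was not given in the sources used here, so the levels of Gng13 and Pcp2 are uncertain.

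**Figure D1:**
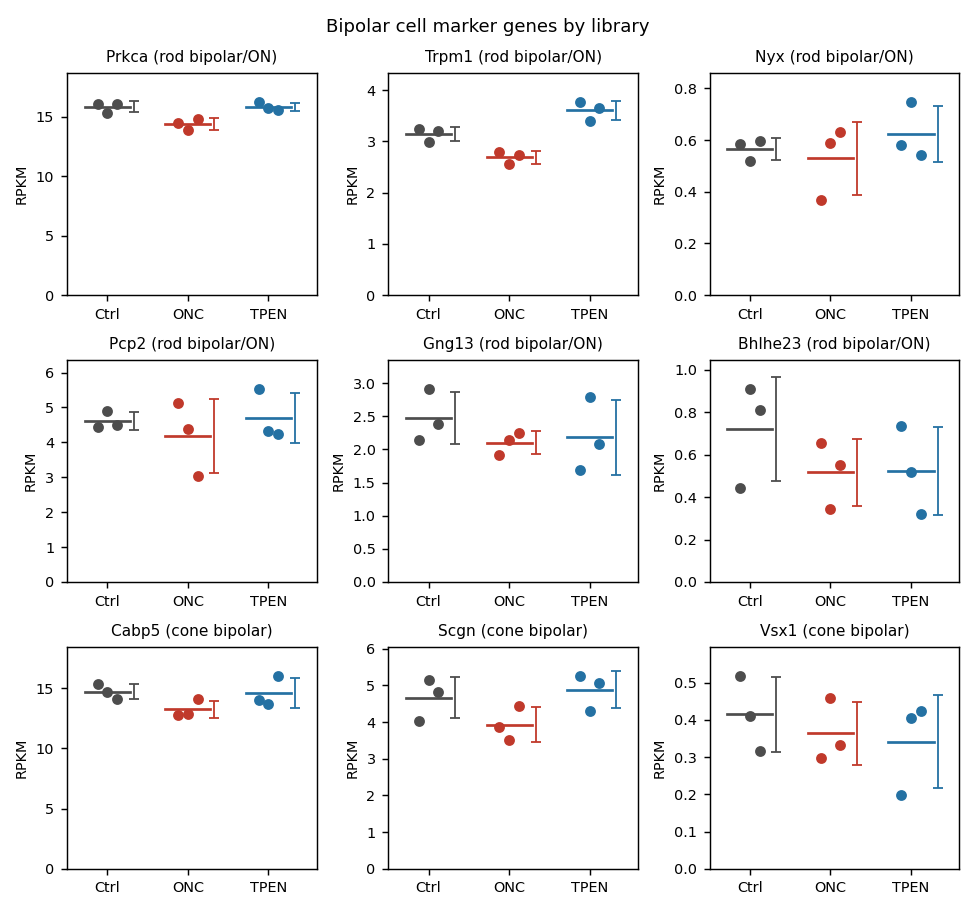
Level of each of the 9 bipolar marker genes in RPKM (y axis, from 0) for the 3 Ctrl, 3 ONC and 3 TPEN libraries (points), with the group mean (horizontal line) and SD (bar at the right). The ONC libraries of Trpm1 and Prkca lie below all Ctrl and all TPEN libraries, and those of Nyx, Pcp2, Bhlhe23 and Vsx1 overlap the other groups.

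The sorted cells carried a mixture of retinal RNA. The totals worked out from the RPKM steps were 20077226 to 23109754 reads in Ctrl, 22967138 to 22986065 in ONC and 19946993 to 22217283 in TPEN. Rod genes led the libraries, with Gnat1, the gene of rod transducin alpha, at a mean of 10641 RPKM. Of the 12 RGC markers on the list, the neurofilament genes Nefl (rank 153), Nefm (847) and Nefh (1811) and the synuclein Sncg (2289) ranked high, and Thy1, the gene of the sorted antigen, ranked 6283 and Tubb3 7783. Rbpms (13805), Slc17a6 (14020) and Pou4f1 (14252) ranked low, and Pou4f2, Pou4f3 and Isl2 were not among the listed genes. The libraries are therefore described here by their labels and not as pure RGCs.

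The summed level of the 9 members was lower in ONC than in either other group. It was 46.9, 47.8 and 46.8 RPKM in Ctrl, 42.3, 40.7 and 42.9 RPKM in ONC, and 48.0, 46.0 and 47.9 RPKM in TPEN. The 3 ONC libraries lay below all 6 others, and Ctrl (47.2 ± 0.526 RPKM) and TPEN (47.3 ± 1.14 RPKM) overlapped (mean ± SD, n = 3). Prkca and Cabp5 made up 62.8% to 67.4% of the sum in each library. Without them the other 7 genes summed to 15.4 to 17.8 RPKM in Ctrl, 14.0 to 15.0 RPKM in ONC and 16.3 to 17.7 RPKM in TPEN, and ONC again lay below both.

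The first comparison, ONC against Ctrl, asked how these genes differed after crush with a vehicle injection. No injection is stated for Ctrl, so crush and injection cannot be told apart. All 9 members had a lower mean in ONC, where 45.7% of all listed genes had one. None of the 8 tested members was called at a limma adjusted p under 0.05, against a background of 18.7% of the 13566 tested genes called in either direction. With 3 of 9 members (Trpm1, Prkca and Cabp5), every ONC library lay below every Ctrl library, against 15.8% of tested genes with that pattern. The median log2 fold change of the 8 tested members was -0.19, beside 0.02 over all tested genes. The direction of the 8 fold changes was the same after quantile normalization, which moved the median of all genes to -0.03.

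Prkca had 16.1, 15.3 and 16.1 RPKM in the Ctrl libraries, 14.5, 13.9 and 14.9 RPKM in ONC, and 16.2, 15.8 and 15.5 RPKM in TPEN. All ONC libraries were below all others, and Ctrl and TPEN overlapped. On the log2(RPKM + 0.1) scale its difference in ONC/Ctrl was -0.14 (standard error, SE, 0.0424, limma adjusted p = 0.0517), a difference in the mean RPKM of -9.09%. Prkca was called in this comparison after quantile normalization (limma adjusted p = 0.0144) and when the reads were tested with voom (limma adjusted p = 0.0112).

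Trpm1 had 3.25, 2.99 and 3.21 RPKM in Ctrl, 2.79, 2.55 and 2.73 RPKM in ONC, and 3.77, 3.40 and 3.65 RPKM in TPEN. The 3 groups did not overlap, with ONC lowest and TPEN highest. In ONC/Ctrl the log2 fold change was -0.22 (95% interval -0.39 to -0.047, limma adjusted p = 0.0784), a difference in the mean RPKM of -14.5%. This gene too was called after quantile normalization (limma adjusted p = 0.0344) and by voom (limma adjusted p = 0.00853), and over all alternatives its log2 fold change ran from -0.26 to -0.17.

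Of the cone bipolar genes, Cabp5 had 15.4, 14.7 and 14.1 RPKM in Ctrl, 12.8, 12.8 and 14.1 RPKM in ONC, and 14.0, 13.7 and 16.0 RPKM in TPEN. The highest ONC library lay just below the lowest Ctrl library, so the separation rests on a narrow gap. Its log2 fold change in ONC/Ctrl was -0.15 (SE 0.0675, limma adjusted p = 0.154). Scgn had 4.04, 5.15 and 4.81 RPKM in Ctrl, 3.85, 3.51 and 4.43 RPKM in ONC, and 5.26, 4.31 and 5.07 RPKM in TPEN. The groups of Scgn overlapped, and its log2 fold change was -0.24 (limma adjusted p = 0.205).

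For the members with few reads, the Ctrl and ONC libraries overlapped. Pcp2 had 4.44, 4.90 and 4.50 RPKM in Ctrl, 5.14, 4.38 and 3.05 RPKM in ONC, and 5.53, 4.33 and 4.25 RPKM in TPEN. Its ONC libraries covered the Ctrl range, and its log2 fold change was -0.17 (95% interval -0.55 to 0.22, limma adjusted p = 0.568). Gng13 had 2.14, 2.91 and 2.38 RPKM in Ctrl, 1.91, 2.14 and 2.25 RPKM in ONC, and 1.68, 2.79 and 2.08 RPKM in TPEN. Its log2 fold change in ONC/Ctrl was -0.22 (95% interval -0.61 to 0.18, limma adjusted p = 0.445). Bhlhe23 had 0.443, 0.910 and 0.810 RPKM in Ctrl, 0.656, 0.346 and 0.553 RPKM in ONC, and 0.735, 0.518 and 0.318 RPKM in TPEN. It had the most negative fold change of the members in ONC/Ctrl, -0.39, with an interval from -1.12 to 0.33 (limma adjusted p = 0.454). Nyx had 0.585, 0.518 and 0.596 RPKM in Ctrl, 0.369, 0.588 and 0.630 RPKM in ONC, and 0.579, 0.747 and 0.542 RPKM in TPEN, with a log2 fold change of -0.11 in ONC/Ctrl (limma adjusted p = 0.764). One low ONC library (replicate 1) set the sign for Nyx, which was 0.09 without it. Likewise Pcp2 was 0.04 without ONC replicate 3. Vsx1 had 0.518, 0.411 and 0.315 RPKM in Ctrl, 0.298, 0.459 and 0.333 RPKM in ONC, and 0.198, 0.404 and 0.423 RPKM in TPEN. All groups of Vsx1 overlapped, and in a fit without the filter its log2 fold change was -0.15 (limma adjusted p = 0.745).

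**Figure D2:**
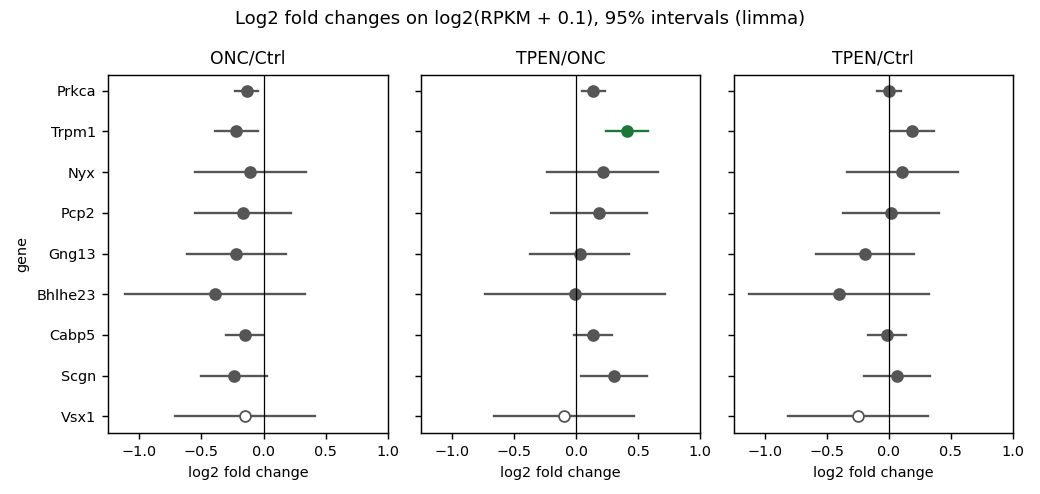
Log2 fold change of each member on the log2(RPKM + 0.1) scale (x axis) in ONC/Ctrl, TPEN/ONC and TPEN/Ctrl, with 95% limma intervals (lines); the green point was called at an adjusted p under 0.05 and open points are from the fit without the filter. All 9 points of ONC/Ctrl lie below 0, and Trpm1 in TPEN/ONC (0.41) is the only call.

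The next comparison, TPEN against ONC, asked what zinc chelation did after crush. Trpm1 was the only one of the 8 tested members called, against a background of 7.39% of tested genes called in either direction. Its log2 fold change was 0.41 (SE 0.0765, 95% interval 0.24 to 0.58, limma adjusted p = 0.0123), a mean RPKM 34.0% above that of ONC. All 3 TPEN libraries exceeded all 3 ONC libraries, a pattern held by 2 of the 9 members (Trpm1 and Prkca) and by 12.5% of tested genes. The call was lost without ONC replicate 2, where the log2 fold change was 0.37 (limma adjusted p = 0.0524). Over all alternatives the log2 fold change of Trpm1 ran from 0.32 to 0.45 and the adjusted p from 1.3e-05 to 0.0524.

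Mean RPKM values were higher in TPEN than in ONC for 8 of the 9 members, as they were for 47.5% of listed genes, and Vsx1 was the exception. Prkca differed by 0.14 on the log2 scale (SE 0.0424, limma adjusted p = 0.0853), and was called after quantile normalization (limma adjusted p = 0.0464) and by voom (limma adjusted p = 0.0184). Scgn had 0.31 (95% interval 0.04 to 0.57, limma adjusted p = 0.165) and Cabp5 0.14 (limma adjusted p = 0.275). The log2 fold changes of Nyx and Pcp2 were 0.22 and 0.18, with intervals that reach from below 0 to 0.66 and 0.57. Gng13 and Bhlhe23 stayed near 0, at 0.03 and -0.01. The median over the 8 tested members was 0.16, beside -0.01 over all tested genes. ONC/Ctrl and TPEN/ONC share the ONC libraries, so opposite signs in these comparisons are not independent of each other.

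The comparison of TPEN with Ctrl combines crush, injection and chelation. Its fold changes do not use the ONC libraries, which enter the filter on low values and the estimate of the spread behind its p-values. None of the 8 tested members was called, against 13.4% of tested genes. The means were higher in TPEN for 5 members and lower for 4, where 54.8% of listed genes were higher. Trpm1 had a log2 fold change of 0.19 (95% interval 0.02 to 0.36, limma adjusted p = 0.142), with all TPEN libraries above all Ctrl libraries, as in 18.1% of tested genes. It was called in this comparison by voom on the reads (limma adjusted p = 0.0233). Prkca and Cabp5 had log2 fold changes of 0.0021 (95% interval -0.093 to 0.097) and -0.016 (95% interval -0.17 to 0.14), the narrowest intervals of the members. Scgn had 0.07. Bhlhe23 and Vsx1 had -0.40 and -0.25 with intervals that span 0. No member passed an adjusted p under 0.05 together with a 1.5-fold change in any comparison, where 5.34% of tested genes passed both in ONC/Ctrl, 2.03% in TPEN/ONC and 3.91% in TPEN/Ctrl.

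Rod bipolar and ON genes were set against cone bipolar genes by the mean log2(RPKM + 0.1) of each class in each library. The difference, rod bipolar and ON minus cone, was -0.33 ± 0.15 in Ctrl, -0.35 ± 0.11 in ONC and -0.31 ± 0.27 in TPEN (mean ± SD, n = 3). It changed by -0.03 in ONC/Ctrl, 0.05 in TPEN/ONC and 0.02 in TPEN/Ctrl, each less than the SD within a group. The class means moved side by side. In ONC/Ctrl the rod bipolar and ON class differed by -0.21 and the cone class by -0.18, and in TPEN/ONC by 0.16 and 0.11. With 6 and 3 genes per class, and with 4 of the 9 genes at 15 to 86 reads per library, a difference between the classes was not detectable here, which does not show that they behaved alike.

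**Figure D3:**
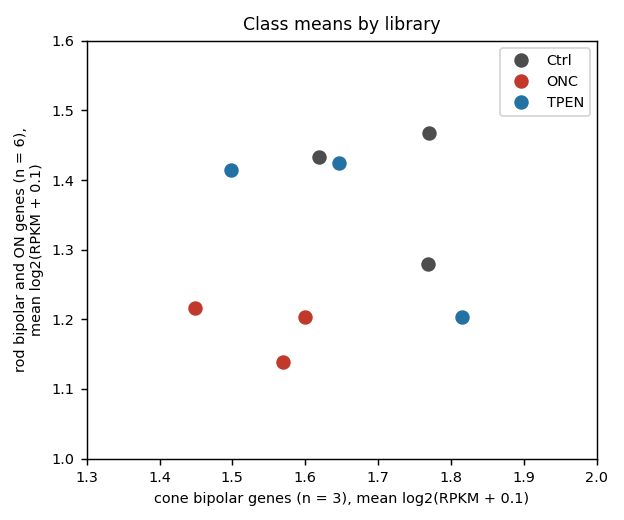
Mean log2(RPKM + 0.1) of the 6 rod bipolar and ON genes (y axis) against that of the 3 cone bipolar genes (x axis), 1 point per library. The ONC points (red) lie low on the y axis, between 1.14 and 1.22, and the Ctrl (grey) and TPEN (blue) points spread from 1.20 to 1.47.

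The rest of the mGluR6 cascade was read from 11 further genes, of which 10 were tested. In ONC/Ctrl, 3 were called lower and 1 higher, where 6.97% of all tested genes were called lower and 11.7% higher, and the median of the 10 was -0.10. Gpr179, an orphan receptor that anchors the regulators of G protein signalling at the dendritic tips of ON bipolar cells, had 4.55, 4.60 and 4.71 RPKM in Ctrl and 3.42, 3.63 and 3.52 RPKM in ONC. In TPEN it had 5.08, 4.47 and 4.64 RPKM. All ONC libraries lay below the other groups, and Ctrl and TPEN overlapped. Gpr179 fell by 0.38 on the log2 scale in ONC/Ctrl (SE 0.0675, limma adjusted p = 0.00337) and rose by 0.41 in TPEN/ONC (limma adjusted p = 0.00622), and both calls held in all 16 alternatives.

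Grm6, the mGluR6 receptor itself, had 2.37, 2.57 and 2.63 RPKM in Ctrl, 1.81, 1.91 and 2.17 RPKM in ONC, and 2.22, 2.47 and 2.39 RPKM in TPEN. Here too ONC lay lowest, without overlap. Grm6 fell by 0.35 on the log2 scale in ONC/Ctrl (limma adjusted p = 0.0304), and its value in TPEN/ONC was 0.25 (limma adjusted p = 0.148). The call in ONC/Ctrl was lost without Ctrl replicate 2, Ctrl replicate 3, ONC replicate 1 or ONC replicate 2, and in a fit of the 6 compared libraries, with adjusted p-values from 0.0125 to 0.105 over all alternatives. Of the exon length of Grm6, 11.05% is shared with Gm12660 on the opposite strand.

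Photoreceptors also use the other 2 called genes of this list. Gnb3, the G protein beta subunit of ON bipolar cells and of cones, rose from 21.0 ± 1.51 RPKM in Ctrl to 66.9 ± 1.03 RPKM in ONC and was 57.6 ± 1.06 RPKM in TPEN (SD, n = 3). These levels differed by 1.67 on the log2 scale in ONC/Ctrl (limma adjusted p = 1.5e-08) and 1.46 in TPEN/Ctrl (limma adjusted p = 7.2e-08). In TPEN/ONC it fell by 0.22 (limma adjusted p = 0.0251), a call that was lost without any one of the 6 compared libraries and after quantile normalization. Rgs9bp, the membrane anchor of RGS9 in photoreceptors and of related regulators in ON bipolar cells, was highest in Ctrl (384 ± 1.53 RPKM), lowest in ONC (321 ± 4.24 RPKM) and between them in TPEN (342 ± 7.60 RPKM). It fell by 0.26 on the log2 scale in ONC/Ctrl (limma adjusted p = 5.3e-05) and by 0.17 in TPEN/Ctrl (limma adjusted p = 0.00125). Gnb5, the partner of the R7 family of regulators, had the highest level of the uncalled genes of the list, with a mean of 127 RPKM.

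**Figure D4:**
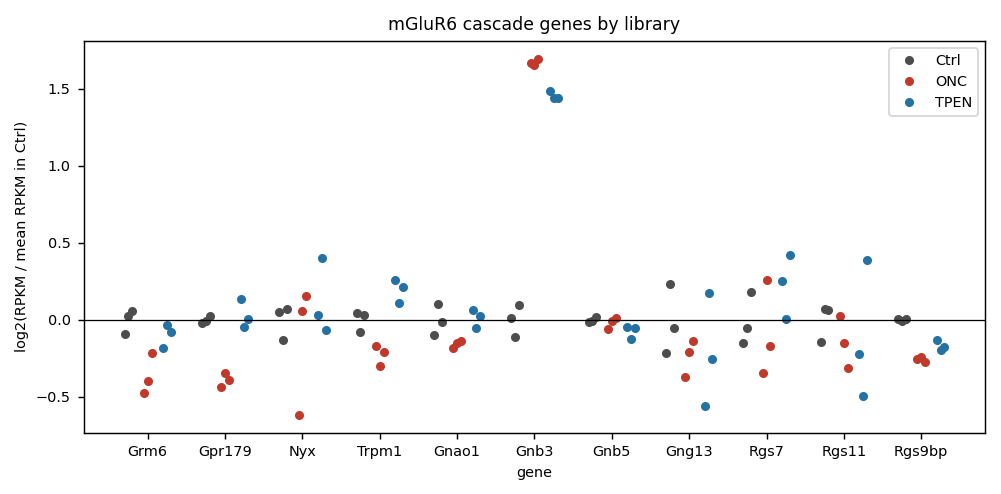
Level of 11 genes of the mGluR6 cascade, including the members Trpm1, Nyx and Gng13, in each library (points) as log2 of RPKM over the Ctrl mean (y axis, 0 is the Ctrl mean). The ONC points of Grm6, Gpr179, Trpm1, Gnao1 and Rgs9bp lie below all Ctrl points, and those of Gnb3 lie near 1.67. Lrit3, Elfn1 and Rgs7bp of the cascade list are not drawn.

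Transcription factors of bipolar cells were tested for 8 of the 12 genes on the list, 10 of which were listed. In ONC/Ctrl 1 was called lower and none higher, against 6.97% of all tested genes lower and 11.7% higher. In TPEN/ONC 1 was called higher, against 3.24%, and in TPEN/Ctrl 3 were called higher, against 8.36% of all tested genes higher and 5.01% lower. Otx2, a homeobox factor that photoreceptors and bipolar cells both need, had 34.4, 34.9 and 37.1 RPKM in Ctrl and 32.3, 33.2 and 31.4 RPKM in ONC. It fell by 0.13 on the log2 scale (limma adjusted p = 0.0400), a call that held in 8 of 16 alternatives and was lost without any one library other than Ctrl replicate 1, ONC replicate 2 and TPEN replicate 2. In TPEN/ONC, Neurod4, a proneural factor, rose by 0.50 (limma adjusted p = 0.0215), from 6.14 ± 1.04 to 8.62 ± 0.445 RPKM. In TPEN/Ctrl, Neurod4 was 0.46 higher (limma adjusted p = 0.0196), Lhx4, a LIM homeobox factor of cone bipolar cells and cones, was 0.44 higher (limma adjusted p = 0.0383), and Prdm8, a zinc finger repressor of rod bipolar cells, was 0.37 higher (limma adjusted p = 0.00839). The call of Prdm8 held in all 16 alternatives. That of Lhx4 held in 7, and was lost without any one library other than Ctrl replicate 1, ONC replicate 1 and ONC replicate 2. That of Neurod4 in TPEN/Ctrl was lost without Ctrl replicate 3, TPEN replicate 1 or TPEN replicate 2, and that in TPEN/ONC without ONC replicate 1, ONC replicate 2, TPEN replicate 1 or TPEN replicate 2. Of the exon length of Prdm8, 29.1% is shared with A730035I17Rik on the opposite strand.

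Of the 16 genes that mark OFF and other bipolar types, 11 were listed and 7 tested, with means from 0.558 RPKM (Grik1) to 4.87 RPKM (Cabp1). In TPEN/ONC 2 were called higher, where 3.24% of all tested genes were higher and 4.14% lower. Igfn1, an immunoglobulin-like gene used to mark cone bipolar types, had 1.20, 1.28 and 1.47 RPKM in Ctrl, 0.827, 0.891 and 0.871 RPKM in ONC, and 1.09, 1.49 and 1.63 RPKM in TPEN. ONC again lay below both other groups. It fell by 0.55 on the log2 scale in ONC/Ctrl (limma adjusted p = 0.0318) and rose by 0.62 in TPEN/ONC (limma adjusted p = 0.0383). The first call was lost without Ctrl replicate 2 or 3 or any one ONC library, and the other held in 8 of 16 alternatives and was lost without any one library other than Ctrl replicate 3 and TPEN replicate 1. Cabp1, a calcium-binding protein of cone bipolar cells, rose by 0.36 in TPEN/ONC (limma adjusted p = 0.0286), from 4.28 ± 0.212 to 5.54 ± 0.403 RPKM. This call was lost without any one ONC library, TPEN replicate 1 or TPEN replicate 2. No gene of this list was called in TPEN/Ctrl.

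RNA of other cell classes moved with the groups. The 8 microglia and macrophage markers were all called higher in ONC/Ctrl (11.7% of all tested genes), and their summed level was 3.18 to 3.78 RPKM in Ctrl, 30.7 to 33.1 RPKM in ONC and 16.3 to 17.8 RPKM in TPEN. The sums of rod, cone and amacrine markers in ONC were 0.873, 0.889 and 0.844 of their Ctrl means, beside 0.890 for the 9 bipolar members. Without the highest gene of each list (Gnat1, Gnat2 and Slc6a9), a choice made after the values were seen, they were 0.917, 0.869 and 0.971, so the amacrine value rests mostly on Slc6a9. Of the 9 rod markers, 6 were called lower and 1 higher in ONC/Ctrl, and of the 9 cone markers 4 lower and 1 higher, against 6.97% of all tested genes lower and 11.7% higher. Rod markers summed to 16860.1 to 17494 RPKM in Ctrl, 14817 to 14978 RPKM in ONC and 15811 to 15868 RPKM in TPEN. In TPEN the cone markers stood at 1.52 of Ctrl, with all 9 called higher in TPEN/Ctrl (8.36% of all tested genes), and the bipolar members at 1.003. The cone sums were 137.7 to 146 RPKM in Ctrl, 123 to 130.1 RPKM in ONC and 213 to 217 RPKM in TPEN. Müller glia markers summed to 1.04 of Ctrl in ONC and 0.822 in TPEN, but to 0.800 and 0.724 without Apoe, the highest gene of the list, and 3 of the 7 were called lower and 1 higher in ONC/Ctrl. The listed RGC markers summed to 1.04 and 0.801, and to 1.07 and 0.877 without Nefl, the highest of them. Among the RGC markers below the filter, the mean RPKM of Pou4f1 differed by -67.9% and that of Rbpms by -35.0% in ONC/Ctrl, while that of Slc17a6 was 62.7% higher. No listed marker was at 0 in any library. The part of these shifts in the levels of the bipolar members was not tested.

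**Figure D5:**
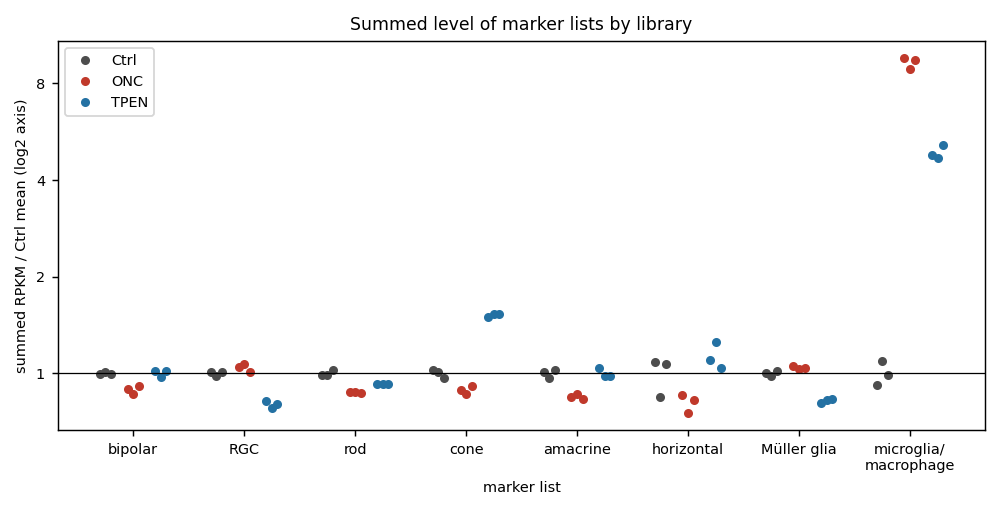
Summed RPKM of each marker list over its Ctrl mean (log2 y axis) for each of the 9 libraries. The bipolar points of ONC lie near 0.890 and those of TPEN near 1.003, beside 9.31 and 4.87 for microglia and macrophage markers and 1.52 for cone markers in TPEN.

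The genes whose pattern was most like that of the leading member of each class were found by the root mean square difference of log2 values, centred on the gene's mean, over the 9 libraries and 12142 genes. For Prkca these were Gm45109 (0.0251), Cep120 (0.0252) and Gcc2 (0.0267). For Cabp5 they were Iqcb1 (0.0429), Cep70 (0.0439) and Vps54 (0.0441). None of the 6 is a bipolar member. Of the 12142 genes, Cabp5 ranked 999 in likeness to Prkca and Trpm1 3928, and Prkca ranked 287 in likeness to Cabp5 and Trpm1 4283. In likeness to Prkca, Scgn ranked 6184, Pcp2 9275 and Gng13 9709. In likeness to Cabp5, Scgn ranked 5173, Pcp2 9948 and Gng13 9440. The measure takes in counting error, which is larger for genes with few reads.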

How the data were processed

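Cells sorted as RGCs were profiled by RNA sequencing in 9 libraries, with a stranded mRNA kit carrying molecular identifiers of 8 random bases. The authors trimmed reads (Trimmomatic 0.36 in the submitters' processing notes), mapped them to GRCm38/mm10 with STAR and deposited RPKM values for 15228 genes. The counting program, annotation, use of strand and collapsing of identifiers were not given in the sources used here. The same table holds the authors' own log2 fold changes and p-values for their comparisons, in 9 columns, which were not used.

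Deposited RPKM values times gene length came in whole steps (tolerance 0.01 reads), from which read numbers and totals were recovered. A floor of 3 reads covers counting error only. Groups followed the labels. Differences were tested with limma 3.58.1 (R 4.3.3) with a variance trend, on log2(RPKM + 0.1) of all 9 libraries, for 13566 genes that averaged 0.5 RPKM or more, with Benjamini-Hochberg adjustment over all of them. A fold change on this scale understates the change of low genes. A call is an adjusted p under 0.05, in a two-sided test. The script was tested on simulated data.

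Alternatives were quantile normalization, no filter, a filter of 1 RPKM, a pseudocount of 1 RPKM, the 6 compared libraries only, a replicate block, voom on the recovered reads, and leaving out each library. All 9 members were described. Other genes of the 3 bipolar lists (mGluR6 cascade, transcription factors, OFF and other types) were named where called, or where highest in their list among uncalled genes. For the leading member of each class, the 3 most alike genes averaging 1 RPKM or more were named. The members and lists were chosen with earlier results of these data known. Sums over markers of RGCs, rods, cones, amacrine cells, horizontal cells, Müller glia, and microglia and macrophages were computed per library. Of the rod list, 1 gene of the rod list is not reported here and was left out of its sums. The horizontal cell list, with 1 of 5 genes tested, stood at 0.812 of Ctrl in ONC and 1.13 in TPEN. Promoter windows came from RefSeq (GRCm38.p6) and were searched on both strands for TAATCC and TAATTN. Exon overlaps were worked out from the exon positions deposited with the RPKM values. Figures were drawn with matplotlib 3.10.9.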

Additional observations from a re-analysis of the deposited data

Results flagged for a closer look

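Trpm1 was flagged in a scan of the 9 members because its libraries moved in opposite directions in the crush groups, relative to Ctrl. All 3 ONC libraries lay below all 3 Ctrl libraries, and all 3 TPEN libraries lay above all 3 Ctrl libraries. Of all tested genes, 15.8% had the first pattern and 18.1% the second. The share of genes with both was not counted, so how unusual this is was not tested. The log2 fold change between the crush groups, TPEN/ONC, was 0.41, with a limma adjusted p of 0.0123, and 0.0524 without ONC replicate 2. The values against Ctrl were -0.22 in ONC and 0.19 in TPEN, neither of which passed the threshold after adjustment. The Ctrl libraries enter both of these values, so they are not independent.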

How the results depend on the processing

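The number of members called moved with the test. In ONC/Ctrl it was 2 after quantile normalization and 2 with voom, against 0. In TPEN/ONC it was 2 with each of these, against 1, and 0 to 1 when libraries were left out one at a time. In TPEN/Ctrl it was 1 with voom, against 0. In TPEN/ONC the share of all genes called was 12.4% with voom, against 7.39%, and 3.95% to 8.48% with 1 library left out. The cause of these shifts was not tested. Of the member fold changes under alternatives, 348 kept their direction and side of the threshold, and 22 changed sign, none of them called. With quantile normalization, Bhlhe23 in TPEN/ONC was 0.012, and in TPEN/Ctrl Nyx was -0.046, Pcp2 -0.0013 and Prkca -0.016. With a pseudocount of 1 RPKM, Bhlhe23 in TPEN/ONC was 0.0015. With 1 library left out, the log2 fold changes that changed sign had these ranges. In ONC/Ctrl they were Lhx4 -0.059 to 0.13, Nyx -0.23 to 0.091, Neurod4 -0.17 to 0.055 and Pcp2 -0.33 to 0.042. In TPEN/ONC they were Bhlhe23 -0.25 to 0.25, Gng13 -0.16 to 0.19 and Pcp2 -0.023 to 0.34. In TPEN/Ctrl they were Cabp5 -0.086 to 0.027, Pcp2 -0.10 to 0.086, Scgn -0.032 to 0.15, Prkca -0.023 to 0.016, Otx2 -0.048 to 0.0057, Gpr179 -0.020 to 0.071, Nyx -0.011 to 0.19 and Igfn1 -0.038 to 0.23. The list genes were put through the alternatives after their values were seen. Under quantile normalization, Lhx4 in ONC/Ctrl was -0.054 and Igfn1 in TPEN/Ctrl -0.015, neither of them called. The difference between classes moved by less than its SD in all 24 alternative values.

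Replicate numbers did not pair the libraries, since deviations of same-numbered libraries correlated at -0.062 to 0.027. With the replicate block, 16.4%, 5.17% and 10.8% of all genes were called in ONC/Ctrl, TPEN/ONC and TPEN/Ctrl, and no member's call changed. Among the list genes, the calls of Otx2 in ONC/Ctrl (adjusted p = 0.0808), Cabp1 (0.0576) and Neurod4 (0.0560) in TPEN/ONC and Lhx4 in TPEN/Ctrl (0.0799) were lost with the block. Depth limits Nyx, Gng13, Bhlhe23 and Vsx1, which had 15 to 86 reads per library.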
